A study of Homo sapiens with 9 samples.

Results

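Coenzyme Q biosynthesis was examined through 10 genes, chosen by name as the synthases and COQ enzymes of the pathway: PDSS1, PDSS2, COQ2, COQ3, COQ4, COQ5, COQ6, COQ7, COQ8A and COQ9. They are 10 of the 78894 genes in the expression tables, and all 10 were among the 16908 genes with enough counts to be tested. The RNA came from Hap1, a human cell line with an almost haploid genome that descends from a chronic myeloid leukaemia. In all 3 groups the endogenous SARS2 gene, which encodes mitochondrial seryl-tRNA synthetase, was deleted, and a doxycycline-inducible SARS2-1xFLAG copy was present. Doxycycline was withheld for 6 days, and each group also carried a constitutive SARS2+int14-myc copy that was WT, R227Q or H448L. Each group had 3 libraries. The labels name neither the promoter of the constitutive copy nor the number of clones behind a group. The p-values therefore speak only of the spread among the 9 libraries, part of which may be technical.

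Coenzyme Q (ubiquinone) is a lipid carrier of the inner mitochondrial membrane that takes electrons from complex I and from several dehydrogenases and hands them to complex III. Its isoprenoid tail is built from products of the mevalonate pathway, the same pathway that feeds cholesterol synthesis, and its ring comes from 4-hydroxybenzoate. COQ2 joins tail and ring in the mitochondrion, and a complex of COQ proteins on the matrix side then modifies the ring.

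COQ2 (ENSG00000173085) spans chr4:83261536-83284914 on the minus strand of GRCh38 and shares no exon base with another gene. It is the member whose level differed between genotypes, so the stretch upstream of its first GENCODE exon is shown. COQ5 is shown beside it, upstream of its RefSeq start, because its promoter was the one among the members that held the letters of a sterol regulatory element, with that match in capitals. Both are RefSeq GRCh38.p14 sequence on the minus strand, chr4:83284915-83285048 for COQ2 and chr12:120529183-120529408 for COQ5. The COQ5 stretch lies inside the GENCODE gene, which spans chr12:120503274-120534434 on the minus strand and has a transcript that starts farther upstream, while the COQ2 stretch lies outside its gene.
COQ2: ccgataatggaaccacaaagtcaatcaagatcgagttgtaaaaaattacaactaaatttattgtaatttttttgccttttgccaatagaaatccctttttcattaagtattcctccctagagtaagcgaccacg
COQ5: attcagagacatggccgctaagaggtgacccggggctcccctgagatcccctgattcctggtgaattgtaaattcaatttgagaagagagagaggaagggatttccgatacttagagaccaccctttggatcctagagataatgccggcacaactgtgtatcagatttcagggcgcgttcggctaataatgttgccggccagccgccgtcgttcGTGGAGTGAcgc
The promoter table held 8 of the 10 members, with COQ3 and COQ4 not matched. The element searched was TCACNCCAC on either strand, from 250 bases before to 50 bases after a start site, and 1.13% of all 35116 promoters in the table hold it. In COQ5 it lies on the strand opposite the gene, from 36 to 28 bases before the start, at chr12:120529186-120529194. The same letters were found in 0 of 7 mevalonate pathway genes with a promoter entry. Over the 250 bases before its start, the COQ2 promoter is 45.6% G and C, against a median of 58.0% over all promoters. These matches describe the letters in these windows. An element spelled otherwise would be missed, so a lack of match does not show that a gene lacks one. Whether COQ5 or any of these genes responds to sterols was not tested.

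By their column names the libraries belong to 2 submissions, SDKYMR (WT 1, WT 2 and R227Q 1) and 4LJFHN (WT 3, R227Q 2, R227Q 3 and H448L 1 to 3). A library had between 9900892 and 12991050 counts, and levels are given as CPM, a gene's count scaled to the total of its library. SARS2 itself, with all copies counted together, was at 6.2 to 8.54 CPM in WT, 7.09 to 8.68 in R227Q and 7.88 to 8.68 in H448L, which does not tell the copies apart. The submissions differed in 43.8% of genes tested, so the fit carried a term for submission beside genotype. All differences between genotypes below are log2 fold changes from that fit, as estimate ± standard error, with edgeR's quasi-likelihood test and Benjamini-Hochberg adjustment over all genes tested. A gene was called at an adjusted p under 0.05. Of cell type markers, 3 of 6 epithelial, 3 of 6 fibroblast and 4 of 8 haematopoietic genes stayed under 1 CPM in every library, and 0 were at 0 in all 9. Summed levels of the fibroblast and haematopoietic markers differed between submissions. Within SDKYMR, fibroblast markers were at 19.6 to 20.8 CPM in WT and 25.5 in R227Q, and within 4LJFHN at 52.5 in WT, 61.1 to 65.8 in R227Q and 55.2 to 65.4 in H448L. Haematopoietic markers were at 9.09 to 9.64 CPM in WT and 10.5 in R227Q of SDKYMR. In 4LJFHN they were at 25.3, 21.6 to 26.8 and 26.3 to 30.9 in WT, R227Q and H448L. HBG1 of that list was at 0.0 CPM in every SDKYMR library and at 13.0 to 19.9 CPM in those of 4LJFHN. The other tested genes of that list, KIT, RUNX1 and ITGA2B, were not called between submissions, at -0.18, 0.28 and -0.02. Epithelial markers were at 78.1 to 92.5 CPM in SDKYMR and 79.4 to 89.9 in 4LJFHN, which overlap. Most of that sum was KRT18, at 69.6 to 83.5 CPM. With submission in the fit, COL1A1 and THY1 of the fibroblast list rose in R227Q by 0.29 and 0.86 (edgeR adjusted p = 0.0047 and 0.04). THY1 had only 9 to 29 counts per library. COL1A2, the remaining fibroblast marker tested, was at -0.24 in R227Q and was not called. It was at 0.155 to 0.385 CPM in SDKYMR and at 5.34 to 10.2 CPM in 4LJFHN. KRT18 of the epithelial list rose in R227Q by 0.15 and ITGA2B of the haematopoietic list by 0.58 (edgeR adjusted p = 0.044 and 0.04). In H448L, ITGA2B rose by 0.87 (edgeR adjusted p = 0.013). The markers called higher were 4 of the 10 tested in R227Q and 1 of 10 in H448L. Of all genes, 7.5% and 2.97% were called higher in R227Q and H448L. The part of these markers in the results was not tested. In bulk RNA, fewer cells of a type and less RNA per cell cannot be told apart.

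COQ2, the 4-hydroxybenzoate polyprenyltransferase that attaches the isoprenoid tail to the ring, was lower in both variants than in WT. WT 1 to 3 had COQ2 at 39.4, 42.2 and 52.8 CPM. In R227Q 1 to 3 it was 31.4, 42.2 and 38.8 CPM. In H448L 1 to 3 it was 43.5, 41.4 and 44.7 CPM. Over all libraries the groups overlap, while within each submission every WT library lies above every variant library. COQ2 fell in R227Q by 0.39 ± 0.06 on the log2 scale (n = 3 and 3, 1.31-fold lower, 95% interval -0.52 to -0.26, edgeR adjusted p = 3.3e-05). The same difference was -0.38 within SDKYMR and -0.39 within 4LJFHN, as log2 CPM. In H448L the gene fell by 0.31 ± 0.07 (1.24-fold lower, interval -0.45 to -0.17, edgeR adjusted p = 0.0049).

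COQ2 was the 1 member of 10 called in R227Q against WT, where 17.4% of all genes were called and 9.91% were called lower. It was also the 1 member of 10 called in H448L against WT, where 7.97% of all genes were called and 4.99% were called lower. A share of 1 in 10 is near both backgrounds, so the list as a whole did not stand apart by its count. Both comparisons share the WT libraries, and the H448L comparison leans on WT 3, the WT library of its own submission. Without WT 3 the H448L difference in COQ2 was -0.30 with an edgeR adjusted p of 0.22, and with no submission term both COQ2 calls were lost. Over the 19 alternatives the COQ2 adjusted p ran from 5.5e-07 to 0.25 for R227Q and from 0.0018 to 0.57 for H448L.

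**Figure D1:**
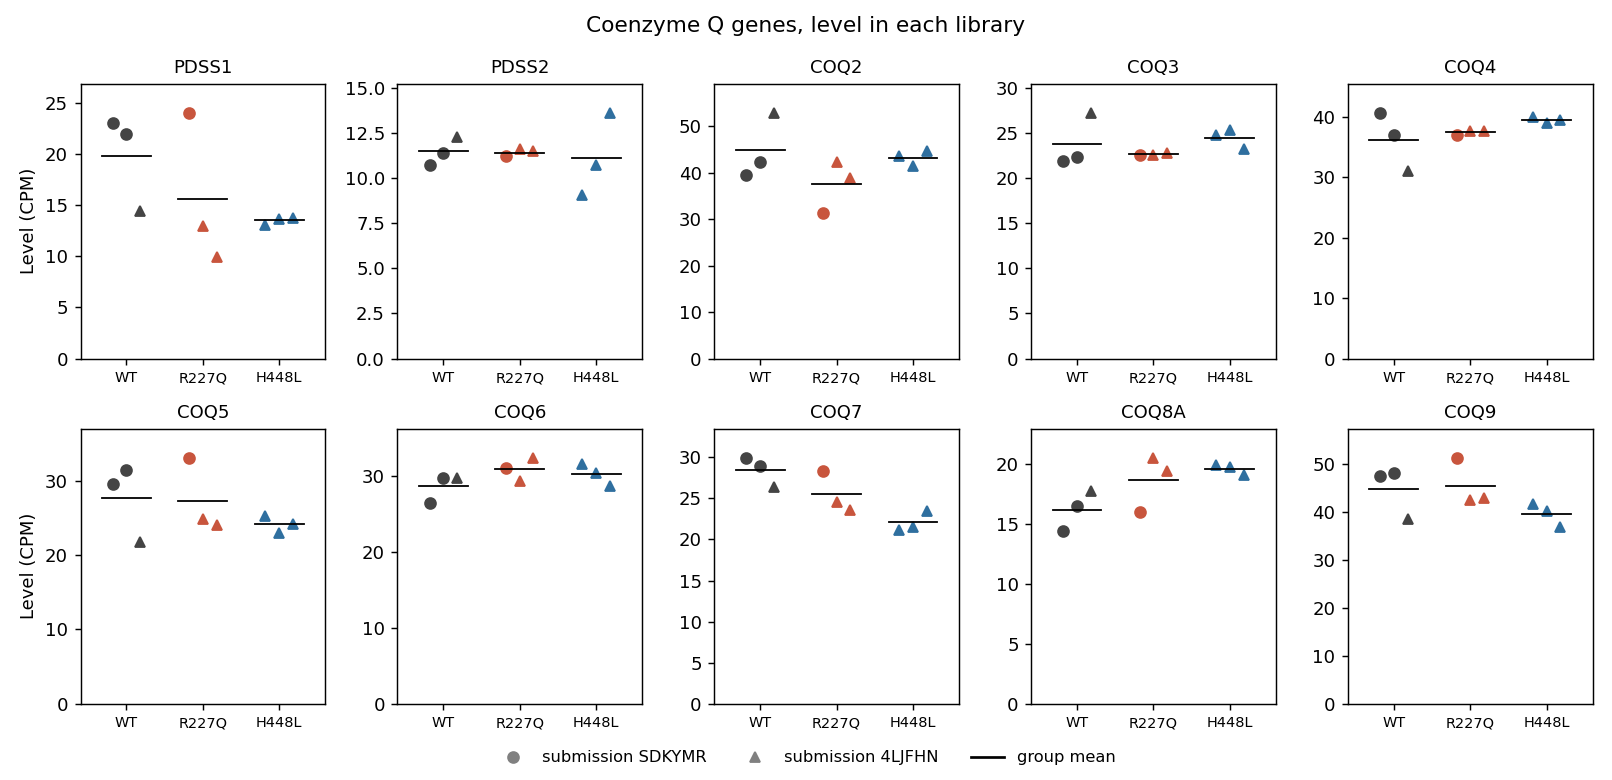
Level in CPM (y axis, from 0) of each coenzyme Q gene in each library, by genotype (x axis), with circles for submission SDKYMR, triangles for 4LJFHN and a line at each group mean. The COQ2 level of WT 3, at 52.8 CPM, lies above every other 4LJFHN library, and PDSS1 splits by submission.

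PDSS1 and PDSS2 are the subunits of the enzyme that builds the polyprenyl tail. PDSS1 was at 23.0, 22.0 and 14.4 CPM in WT 1 to 3. It was at 24.0, 13.0 and 9.88 CPM in R227Q 1 to 3 and at 13.1, 13.6 and 13.7 CPM in H448L 1 to 3. The 3 SDKYMR libraries, of both genotypes, were at 22.0 CPM or more and the 6 libraries of 4LJFHN at 14.4 CPM or less. With submission in the fit, PDSS1 differed from WT by -0.07 ± 0.10 in R227Q and by 0.06 ± 0.13 in H448L, with no call in either variant (edgeR adjusted p = 0.67 and 0.84). PDSS2 was at 10.7, 11.4 and 12.3 CPM in WT, 11.2, 11.6 and 11.5 in R227Q, and 9.08, 10.7 and 13.6 in H448L. These ranges overlap, and the H448L libraries hold both the lowest and the highest value. The PDSS2 difference in H448L was -0.14 with an interval of -0.42 to 0.14, the widest of the members in that comparison, so a fall as large as that of COQ2 lies inside it.

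COQ7 hydroxylates the ring near the end of the pathway, and COQ9 is the lipid-binding protein that presents the substrate to it. COQ7 was at 29.9, 29.0 and 26.4 CPM in WT 1 to 3, at 28.3, 24.6 and 23.6 in R227Q and at 21.2, 21.5 and 23.5 in H448L. All H448L libraries were below all WT libraries, including WT 3 of the same submission. The H448L difference was -0.26 ± 0.09 (interval -0.43 to -0.08), which did not pass the adjusted test (edgeR adjusted p = 0.067). That p ran from 0.046, without H448L 3, to 0.52 over the alternatives. COQ9 was at 47.5, 48.2 and 38.6 CPM in WT, 51.2, 42.4 and 42.8 in R227Q and 41.6, 40.2 and 36.8 in H448L. The fitted COQ9 difference was 0.11 ± 0.06 in R227Q and 0.00 ± 0.07 in H448L, with no call in either.

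COQ4, a metalloprotein of the COQ complex that acts on the ring carboxyl position, was at 40.6, 36.9 and 31.1 CPM in WT 1 to 3. It was at 37.0, 37.6 and 37.7 CPM in R227Q and 40.0, 38.9 and 39.5 CPM in H448L. The 6 variant libraries lay within the range of the WT libraries, of which WT 3 was lowest. COQ4 differed in H448L by 0.19 ± 0.08 (interval 0.02 to 0.36, edgeR adjusted p = 0.17). It was called higher, with the smallest adjusted p at 0.041, in 3 of 19 alternatives: 4LJFHN alone, only WT and H448L, and without R227Q 1. Over all 19 that p reached 0.97, and without WT 3 the value was -0.02, so the COQ4 difference rested on that library.

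COQ3 and COQ5 are the O- and C-methyltransferases of the ring. COQ3 was at 21.9, 22.3 and 27.2 CPM in WT, 22.6, 22.6 and 22.8 in R227Q, and 24.8, 25.3 and 23.2 in H448L. COQ5 was at 29.5, 31.4 and 21.8 CPM in WT, 33.0, 24.8 and 24.0 in R227Q, and 25.3, 22.9 and 24.1 in H448L. In COQ5 the SDKYMR libraries of both genotypes stood above all 4LJFHN libraries. The fitted differences from WT were -0.13 ± 0.08 and -0.08 ± 0.09 for COQ3 and 0.12 ± 0.07 and 0.10 ± 0.09 for COQ5, in R227Q and H448L in that order. None passed the test.

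COQ6 is the flavin monooxygenase of the ring, and COQ8A is an atypical kinase-like ATPase that supports the complex. COQ6 was at 26.5, 29.8 and 29.8 CPM in WT, 31.1, 29.4 and 32.4 in R227Q and 31.6, 30.5 and 28.8 in H448L. Of the COQ6 exon bases, 37.3% also belong to ENTPD5 on the other strand, and the labels do not say whether counting used strand, so the COQ6 level is uncertain. COQ8A was at 14.4, 16.5 and 17.8 CPM in WT, 16.0, 20.5 and 19.4 in R227Q and 19.9, 19.8 and 19.1 in H448L. Every H448L library was above every WT library for COQ8A, but the fitted difference was 0.08 ± 0.10 (interval -0.12 to 0.29), beside a submission difference of 0.20 in that gene. The R227Q differences were 0.09 ± 0.07 for COQ6 and 0.10 ± 0.09 for COQ8A. Neither gene was called in either variant.

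**Figure D2:**
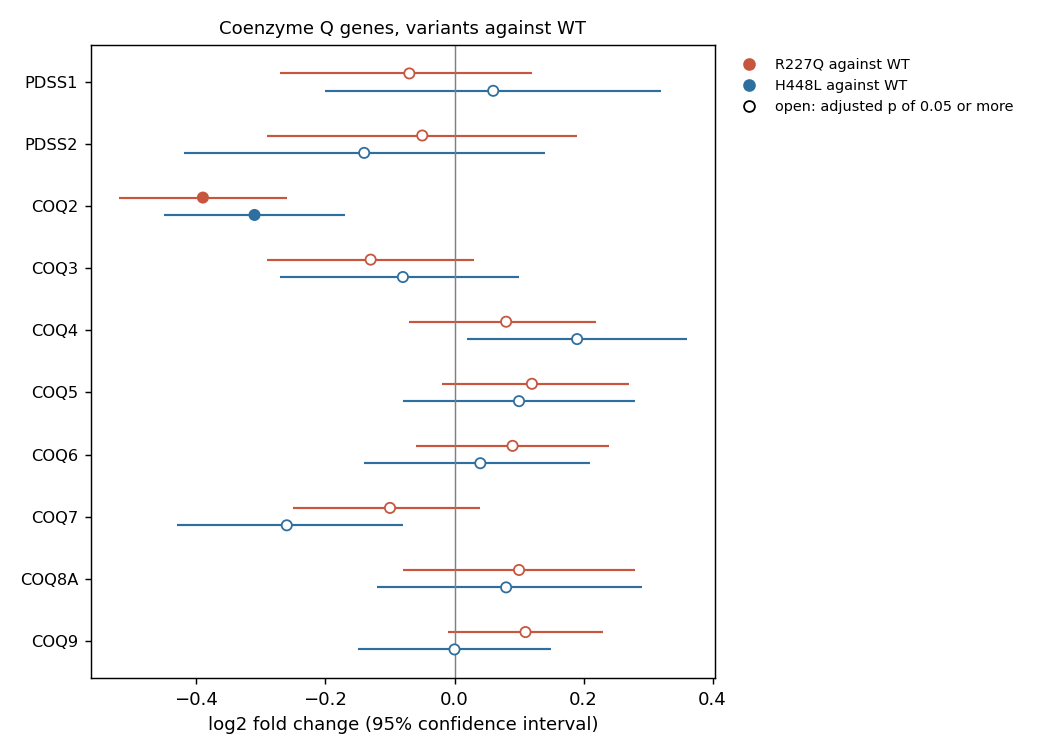
Log2 fold change against WT (x axis) with its 95% confidence interval (bar) for each coenzyme Q gene, in R227Q (orange) and H448L (blue), with filled points for an adjusted p under 0.05. COQ2 has the filled points, at -0.39 and -0.31, and the interval of COQ7 in H448L lies below 0 with an open point.

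Over the 10 genes, 5 lay below 0 in R227Q and 4 in H448L, so the members did not share a direction. The members' median log2 fold change was 0.014 in R227Q and 0.019 in H448L, beside 0.002 and 0.006 over all genes tested. By p, COQ2 ranked 324 of 16908 genes in R227Q and 458 in H448L. Between the variants, 0 of 10 members were called in edgeR, against 0.207% of all genes. Of the members 0 had an unadjusted p under 0.05, beside 1838 of all 16908 genes. The H448L minus R227Q difference of COQ2 was 0.08 ± 0.06, with an interval of -0.05 to 0.21. Differences of up to 0.21 lie inside that interval, so the test does not show that the variants are alike in COQ2. The closest to a difference was COQ7, at -0.15 ± 0.08 (edgeR adjusted p = 0.47).

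Only WT and R227Q had libraries in both submissions, so the R227Q effect could be compared between them. Of 16543 genes fitted for that, 0.0% were called in edgeR, and 840 had an unadjusted p under 0.05. Each effect rests on an arm of 1 library, R227Q 1 in SDKYMR and WT 3 in 4LJFHN, so this comparison does not show that the submissions are alike. The COQ2 effect differed by -0.03 ± 0.12 between submissions, with an interval of -0.28 to 0.22 (edgeR adjusted p = 0.99). Among the members COQ4, PDSS1 and COQ3 had unadjusted p-values of 0.02, 0.028 and 0.043, and each had an edgeR adjusted p of 0.96.

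Submissions were also compared directly. Taken as 4LJFHN minus SDKYMR with genotype in the fit, 6 of 10 members were called, against 43.8% of all genes. Lower in 4LJFHN were 5 members, against 23.0% of all genes, and higher was 1, against 20.8%. PDSS1 differed the most, at -0.93 ± 0.10 (1.9-fold lower, edgeR adjusted p = 6.1e-09), followed by COQ5 at -0.51 ± 0.07 and COQ9 at -0.34 ± 0.06. COQ7 at -0.25 and COQ4 at -0.19 were also lower, COQ7 not without R227Q 1 (-0.20) and COQ4 not without WT 1 (-0.14) or WT 3 (-0.02). Both also lost the call with DESeq2. Of 16 alternatives that give this difference, 14 called COQ7 and 12 called COQ4. COQ2 went the other way, at 0.32 ± 0.06 (edgeR adjusted p = 9.2e-05), a difference about as large as its fall in the variants and opposite in sign. The labels give the submissions' codes and nothing else that set them apart.

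**Figure D3:**
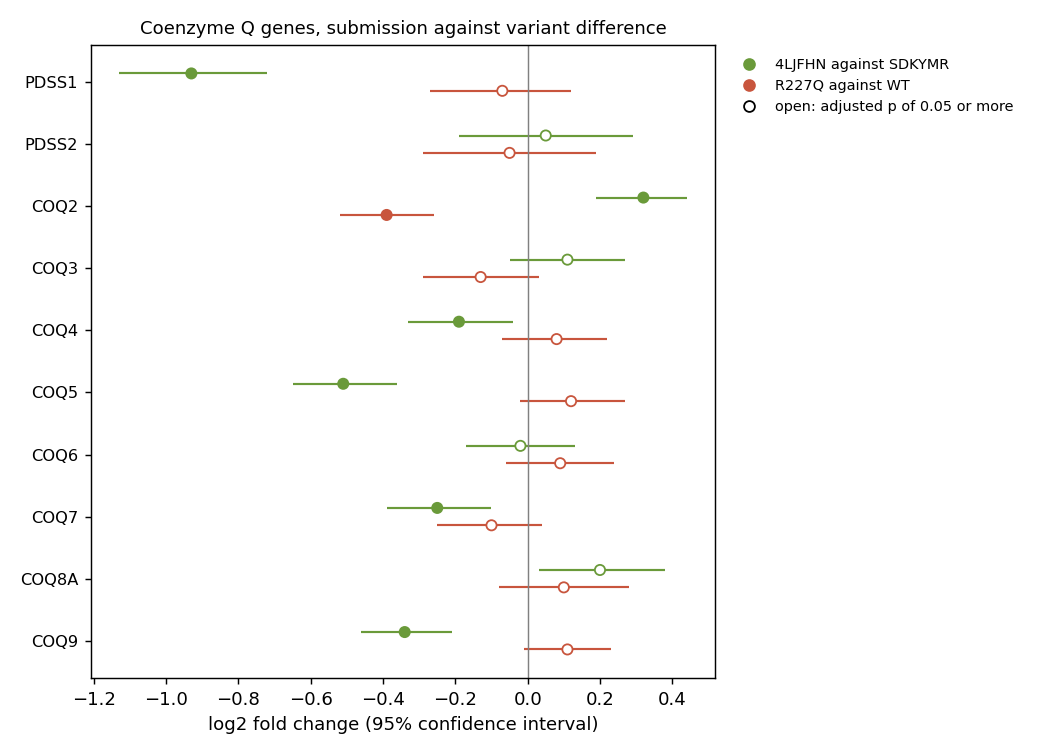
Log2 fold change (x axis) with its 95% confidence interval (bar) for each coenzyme Q gene between submissions (4LJFHN against SDKYMR, green) and in R227Q against WT (orange), both from 1 fit, with filled points for an adjusted p under 0.05. PDSS1 lies at -0.93 between submissions and at -0.07 between genotypes, while COQ2 has filled points on both sides of 0.

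Per length, COQ3 and COQ2 had the highest levels of the 10 genes, with means over 9 libraries of 16.2 and 15.1 CPM per kilobase of exon and ranges of 15.0 to 18.7 and 11.3 to 19.0. These neighbours overlap. COQ5, at 8.64 to 13.1, and COQ9, at 8.5 to 11.8, followed and also overlap, with the means of PDSS1, COQ4, COQ7 and COQ6 between 8.33 and 4.49. PDSS2 at 2.89 and COQ8A at 2.33 were the lowest. The lengths are all exon bases of a gene merged, which lowers the value of genes with many alternative exons.

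Of 11 further genes that act on coenzyme Q or its pathway, 10 were tested, and HPDL was at 0.231 CPM or less in every library. In R227Q 1 was higher and 2 were lower, with a median of -0.133, and in H448L 0 were higher and 3 were lower, with a median of -0.108. Of all genes, 7.5% were called higher and 9.91% lower in R227Q, and 2.97% and 4.99% in H448L. PPTC7, a mitochondrial phosphatase that acts on COQ7, was at 11.7, 11.7 and 5.7 CPM in WT, 8.63, 6.04 and 5.51 in R227Q and 4.01, 5.08 and 3.94 in H448L. It fell in H448L by 0.60 ± 0.18 (edgeR adjusted p = 0.031), and the difference within 4LJFHN was -0.41. PARL, an inner membrane protease that processes STARD7, fell by 0.20 in R227Q and 0.19 in H448L (edgeR adjusted p = 0.0042 and 0.035). PARL shares 47.2% of its exon bases with another gene on the same strand, so its counts are uncertain. RTN4IP1, a mitochondrial reductase of the coenzyme Q pathway, fell by 0.30 and 0.32 (edgeR adjusted p = 0.013 and 0.035). COQ10A, a lipid-binding chaperone of coenzyme Q, rose by 0.24 in R227Q (edgeR adjusted p = 0.02) and was at 0.03 in H448L. COQ8B, COQ10B and AIFM2, the last a reductase of coenzyme Q outside mitochondria, were called in neither variant. Their values against WT were -0.12 and -0.09 for COQ8B, -0.02 and -0.13 for COQ10B, and -0.14 and -0.04 for AIFM2. With the 6 libraries of 4LJFHN alone none of these calls passed the test. PPTC7 was then at -0.41 in H448L (edgeR adjusted p = 0.32) and COQ10A at 0.31 in R227Q (edgeR adjusted p = 0.094). PARL was at -0.13 and -0.14 (edgeR adjusted p = 0.34 and 0.28) and RTN4IP1 at -0.21 and -0.27 (edgeR adjusted p = 0.34 and 0.2), in R227Q and H448L in that order. Of 19 alternatives, 8 called PPTC7, 8 PARL and 8 RTN4IP1 in H448L, and 16 called PARL, 14 RTN4IP1 and 14 COQ10A in R227Q.

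The mevalonate pathway, which supplies the tail, was lower as a list: 6 of 8 genes fell and 0 rose in each variant, where 9.91% and 4.99% of all genes were called lower in R227Q and H448L. The medians were -0.348 in R227Q and -0.297 in H448L. HMGCS1, which makes HMG-CoA, was at 115 to 120 CPM in WT, 66.6 to 72.5 in R227Q and 70.9 to 75.9 in H448L, with no overlap between WT and either variant. It fell by 0.74 ± 0.05 and 0.66 ± 0.06 (edgeR adjusted p = 1.5e-11 and 1.6e-08). IDI1, the isopentenyl diphosphate isomerase, fell by 0.43 and 0.41. FDPS, which makes the farnesyl diphosphate that PDSS1 and PDSS2 extend, fell by 0.35 and 0.25. GGPS1, the geranylgeranyl diphosphate synthase, was at -0.04 and -0.05 and was not called. It shares 37.3% of its exon bases with TBCE on the same strand, so its counts are uncertain. On the other strand, ACAT2, also called lower, shares 33.9% with SOD2-OT1 and 26.5% with SOD2. FDPS shares 18.6% that way, HMGCS1 15.0% and IDI1 14.8%, and the labels do not say whether counting used strand. The fall of COQ2 was within the range of HMGCS1, IDI1 and FDPS, while PDSS1 and PDSS2 were not called. Without WT 3, 5 of 8 mevalonate genes were called lower in R227Q but 1 of 8 in H448L. FDPS at -0.22 and IDI1 at -0.34 were then no longer called in H448L. Over all genes, 689 and 167 of 17319 were called lower without WT 3, against 1676 and 844 of 16908 in the main fit. Within 4LJFHN alone, 5 of 8 were called lower in each variant. With no submission term 3 of 8 were called lower in R227Q and 2 of 8 in H448L, where FDPS, at -0.18, lost its call. Over all genes that setting called 147 and 71 of 16908 lower. In H448L, 4 of 8 were called lower with only the 2 groups compared, the replicate number as a block, or without R227Q 1. Lower calls over all genes were then 455 of 16231, 690 of 16908 and 482 of 17180, in that order.

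Of 10 other users of prenyl diphosphates, 3 fell and 0 rose in R227Q, and 1 fell and 1 rose in H448L, beside 17.4% and 7.97% of all genes called. FDFT1, the squalene synthase at the branch to cholesterol, fell by 0.43 ± 0.04 in R227Q and 0.41 ± 0.04 in H448L (edgeR adjusted p = 2.5e-09 and 5.5e-07). NUS1, a subunit of the dolichol synthase, and FNTB, the beta subunit of farnesyltransferase, fell in R227Q by 0.26 and 0.37 and were at -0.17 and -0.25 in H448L. FNTB shares 42.1% of its exon bases with the read-through gene CHURC1-FNTB. NUS1 kept its call in 17 of 19 alternatives and FNTB in 12, and without WT 3 neither was called, at -0.18 and -0.35. FNTB also lost it without R227Q 1, at -0.41, and without R227Q 2, at -0.30. COX10, the farnesyltransferase of haem and of the same enzyme family as COQ2, rose in H448L by 0.49 ± 0.15 (edgeR adjusted p = 0.042) and was at 0.21 ± 0.13 in R227Q. It was at 11.1, 10.9 and 8.01 CPM in WT, and all H448L libraries were higher, up to 15.4 CPM. Without WT 3 the COX10 difference was 0.10, with an adjusted p of 0.9, the largest over the alternatives, against a smallest of 0.0065. It also lost the call without R227Q 3, H448L 1 or H448L 3, at 0.47, 0.39 and 0.50. The call was lost as well with DESeq2, with the replicate number as a block and with no submission term. COX10 thus kept its H448L call in 12 of 19 alternatives.

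**Figure D4:**
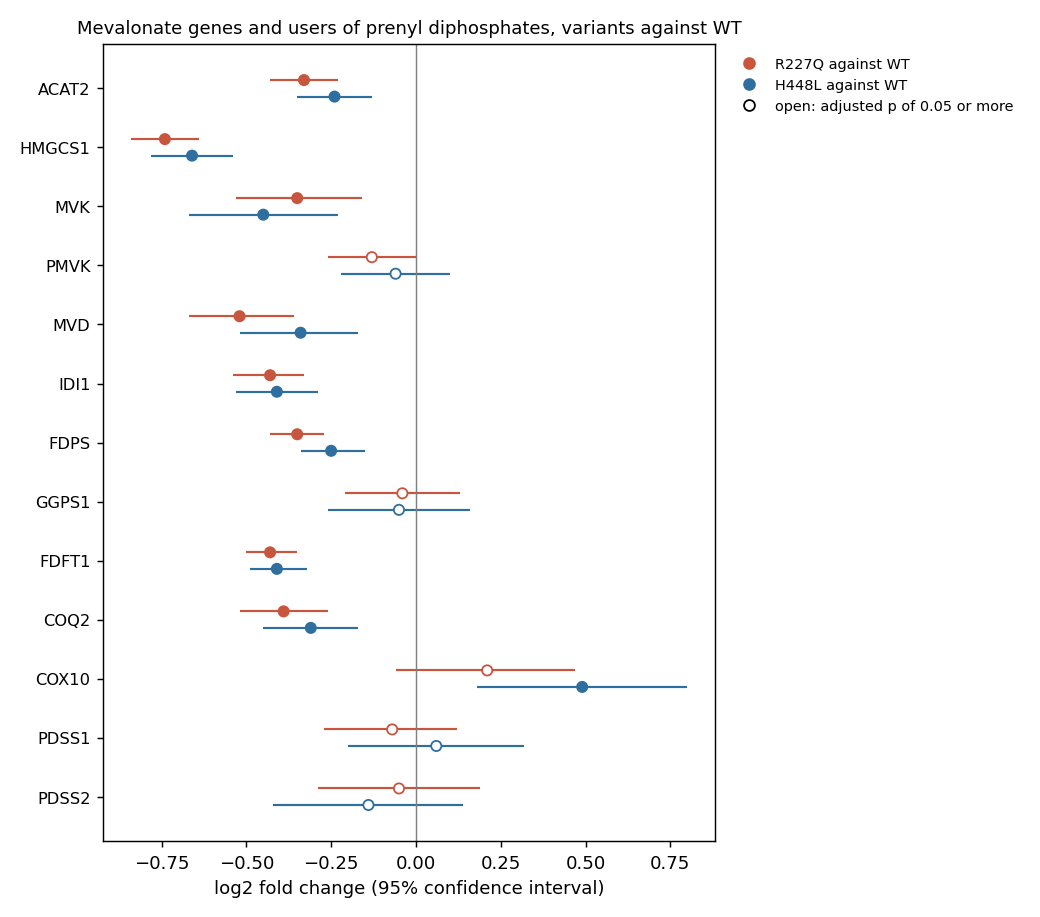
Log2 fold change against WT (x axis) with its 95% confidence interval (bar) for 8 mevalonate genes, FDFT1, the prenyltransferases COQ2 and COX10, and the tail synthase subunits PDSS1 and PDSS2, in R227Q (orange) and H448L (blue), with filled points for an adjusted p under 0.05. COQ2 at -0.39 and -0.31 lies among the mevalonate genes, and both PDSS genes have intervals across 0.

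Genes of enzymes that reduce or oxidise coenzyme Q were compared with the same backgrounds, 17.4% of all genes called in R227Q and 7.97% in H448L. Of 10 dehydrogenase genes outside complex I, 0 were called higher and 1 lower in R227Q, and 0 were called in H448L. In H448L 0 had an unadjusted p under 0.05, beside 3634 of all 16908 genes. All 10 lay below 0 in R227Q, with a median of -0.115, beside 49.6% and 0.002 over all genes. In H448L 5 lay below 0, with a median of 0.022, beside 48.8% and 0.006. The gene called lower in R227Q was SDHD, a membrane anchor of complex II, which fell by 0.29 ± 0.08 (edgeR adjusted p = 0.0082). SDHD was at 42.7 to 53.5 CPM in the 3 SDKYMR libraries and 8.33 to 12.8 in the 6 libraries of 4LJFHN, a submission difference of -2.33 ± 0.08. Without R227Q 1, and within 4LJFHN alone, its R227Q difference was -0.21 and was not called, with adjusted p-values from 0.0031 to 0.54 over the alternatives. CHDH, ETFDH, SDHB and SDHC, the next by p, were at -0.17, -0.16, -0.09 and -0.05 in R227Q and at -0.12, -0.13, 0.05 and -0.10 in H448L. Of 9 nuclear genes of complex III, 3 were called in R227Q: UQCRC2 rose by 0.19, UQCRC1 fell by 0.17 and UQCRFS1 by 0.16 (edgeR adjusted p = 0.003, 0.023 and 0.013). Without WT 3 none of these 3 calls was kept, at 0.16, -0.22 and -0.09. Among other settings, UQCRC1 also lost it without WT 2, at -0.15, and without R227Q 1, at -0.11. Of 19 alternatives, 16 called UQCRC2, 10 UQCRC1 and 17 UQCRFS1 in R227Q. In H448L 0 of 9 were called in edgeR. CYC1, at 0.12, was the 1 gene with an unadjusted p under 0.05, beside 3634 of all 16908 genes.

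The genes whose pattern was most like that of COQ2 were ranked by Pearson correlation of log2 CPM over the 9 libraries, after the submission term was removed, among 11130 named genes with a mean of at least 5 CPM. The first 5 were RAN at 0.991, ELOVL6 at 0.987, VCP at 0.987, the pseudogene TUBAP2 at 0.986 and ZC3H15 at 0.985. FDPS ranked 29 at 0.977, HMGCS1 46 at 0.969 and FDFT1 72 at 0.963. Of the members, COQ7 was the closest at 0.648, with a rank of 2489, and COQ5 was at -0.642. These are descriptions over libraries that share genotype groups and a fitted term.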

How the data were processed

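Poly-A mRNA of 9 Hap1 libraries was measured, 3 each for WT, R227Q and H448L. The authors deposited estimated counts per gene, not normalized, per the file headers, in 1 table per submission, with CPM beside them in the authors' own columns. Per the submitters' processing notes the genome build was GRCh38. The sources used here name no aligner, counter, annotation or strand setting.

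Of 78986 entries, 92 spike-in controls were left out. Per library, 89.1% to 90.1% of count values were whole, with no tolerance, and the rest were rounded. One count is worth 0.077 to 0.101 CPM, and members had 102 to 628 counts per library. Genes passing filterByExpr were fitted in edgeR 4.0.16 (R 4.3.3) with TMM factors of 0.969 to 1.025, genotype and submission, 5 residual degrees of freedom and two-sided quasi-likelihood tests. The biological coefficient of variation was 2.96%. Standard errors are the size of the log2 fold change over the square root of F. Differences within a submission come from mean log2 CPM (prior count 2) and carry no test. Positions and overlaps are from GENCODE on GRCh38, and promoters from RefSeq GRCh38.p14.

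The 10 members, the gene lists and the tests were chosen with earlier results of these data known. Named are all members, a fixed set of pathway genes, and the 3 genes of each list with the smallest p in each variant; other genes named for overlap or calls were chosen after their values were seen. Of the planned list genes, 2 are not reported here and are left out of the list counts and medians.

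Alternatives were DESeq2 1.42.0, limma-voom (limma 3.58.1), RLE factors, upper-quartile factors, testing any gene that had a count, requiring a mean of 10 counts, no submission term, 4LJFHN alone, only the groups compared, the replicate number as a block, and leaving out each library.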

Additional observations from a re-analysis of the deposited data

How the results depend on the processing

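The 3 libraries per group, and a single WT library in 4LJFHN, limit every value here, and the members' intervals are 0.24 to 0.56 wide on the log2 scale. With no submission term, 0 members were called in R227Q and 0 in H448L. COQ2 was then at -0.28 and -0.10. In H448L 2 members, COQ2 and COQ4, were called with 4LJFHN libraries only and also with only the 2 groups compared. Leaving out 1 library at a time gave 0 to 2 members called in H448L, with 0 without WT 3 and 2 without R227Q 1 (COQ2 and COQ4) or H448L 3 (COQ2 and COQ7). The other alternatives kept 1 member in each variant, 0 between variants and 4 to 7 between submissions. Over all genes, DESeq2 called 1546 in R227Q and 733 in H448L, against 2944 and 1347. With no submission term 312 and 147 were called, and 1 between variants. Without WT 3, 1093 and 253 were called. With 4LJFHN only, 1138 and 734 were called, and with only the 2 groups compared 756 in H448L. Upper-quartile factors gave 1565 higher and 1335 lower in R227Q, against 1268 and 1676, and 584 and 652 in H448L, against 503 and 844.

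The main fit did not pair libraries by their numbers. Same-numbered libraries correlated at -0.398 to 0.123 in their residuals, which cannot tell whether they are paired. The genotype and submission terms tie some residuals together, and those of WT 3 and R227Q 1 correlated at 1. With the replicate block, COQ2 was called in both variants (-0.39 and -0.31), 2669, 1055 and 31 genes were called in R227Q, in H448L and between variants, and 1, 1 and 0 members.

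No value named below was called after it turned, and the cause was not tested. With the replicate block, PDSS2 was 0.05 in R227Q, 0.06 in H448L, 0.01 between variants and -0.25 between submissions. GGPS1 was 0.01 and 0.04, and in H448L COQ9 was -0.05, AIFM2 0.07 and FNTB 0.0043. With no submission term, COQ5 was -0.05, COQ9 -0.01, COQ10B 0.03 and SDHC 0.05 in R227Q. In H448L that setting gave PDSS1 -0.62, COQ5 -0.26, COQ9 -0.24, NUS1 0.04, SDHD -1.82, SDHB -0.51, SDHC 0.09 and CYC1 -0.01. Between variants it gave PDSS1 -0.25 and COQ8A 0.04. With 4LJFHN only, COQ10B was 0.0036 and PPTC7 0.0045 in R227Q, and PDSS1 was -0.12 in H448L, also with only the 2 groups compared. COQ9 in H448L, at 0.00 in the report, was -0.01 with DESeq2, RLE factors and every gene with a count, and -0.0012 with limma-voom. COQ10B in R227Q was 0.0045 with upper-quartile factors.

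Leaving out 1 library at a time turned these values. In R227Q the ranges were COQ3 -0.27 to 0.02, COQ4 -0.08 to 0.26, PDSS1 -0.35 to 0.08, PDSS2 -0.10 to 0.0015, COQ10B -0.04 to 0.0047, COX10 -0.09 to 0.57, GGPS1 -0.11 to 0.02 and PPTC7 -0.45 to 0.01. In H448L they were COQ3 -0.18 to 0.11, COQ4 -0.02 to 0.32, COQ6 -0.0028 to 0.09, COQ9 -0.05 to 0.05, PDSS1 -0.12 to 0.31, AIFM2 -0.10 to 0.05, COQ10A -0.06 to 0.08, GGPS1 -0.10 to 0.03, SDHB -0.0029 to 0.09, SDHD -0.03 to 0.15 and UQCRFS1 -0.13 to 0.01. Between variants they were COQ3 -0.0009 to 0.10, COQ5 -0.07 to 0.02, COQ8A -0.04 to 0.01, PDSS1 -0.04 to 0.23 and PDSS2 -0.25 to 0.03. Between submissions they were COQ3 -0.04 to 0.26, COQ6 -0.06 to 0.04 and PDSS2 -0.0027 to 0.11.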
